A study of Mus musculus with 6 samples.

Results

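Porcn, Wls, Lrp4, Lrp5, Lrp6, Kremen1, Dvl1, Dvl2 and Dvl3 are 9 genes that act around the Wnt receptor, from the release of the ligand to the first protein inside the receiving cell. They were chosen by symbol for these roles, and no measured value enters the rule, but the choice was made with earlier results of these data known. All 9 were found among the 18211 genes of the table, and all 9 passed the filter on low values. Their RNA was measured in oligodendrocyte precursor cells (OPCs), glia that divide and mature into the myelin-forming oligodendrocytes, taken from C57BL/6 mice at postnatal day 7 (P7). One group of 3 libraries came from wildtype mice. The study's text describes these mice as non-CreERT. The other 3 libraries came from NG2-CreERTM:DISC1 exon3 fl/+ mice, called DISC1-Δ3, which carry a single floxed Disc1 allele and a tamoxifen-inducible Cre under the promoter of NG2 (Cspg4). Both groups received tamoxifen by gavage on each of 4 days, from P4 to P7, and OPCs were isolated by immunopanning on an antibody against PDGFRα, without culture. Below, OPCs stands for this panned preparation. Its RNA also held markers of other cell types, and the microglial markers summed to far more than the OPC markers. NG2 is also made by pericytes, so its promoter is not restricted to OPCs. The study measured DISC1-Δ3 RNA by RT-qPCR in isolated OPCs, microglia, astrocytes, neurons and pericytes, and reports a rise in OPCs only. How many mice made up a library is not given in the sources used here, so p-values measure the spread between libraries, which may be partly technical.

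In a Wnt-producing cell, the acyltransferase Porcn adds a lipid to each Wnt protein in the endoplasmic reticulum, and the carrier Wls takes the lipid-bearing ligand to the cell surface. On a receiving cell, Wnt binds a Frizzled receptor together with Lrp5 or Lrp6. Dishevelled proteins (Dvl1, Dvl2, Dvl3) are then recruited to the membrane, where they help to disable the complex that degrades β-catenin. Kremen1 binds the secreted antagonist Dkk1 and removes Lrp6 from the surface with it, and Lrp4, a relative of Lrp5 and Lrp6, is known as the receptor of agrin and as a binding partner of sclerostin. In OPCs, strong Wnt/β-catenin signaling is known to delay maturation.

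Of the 9 genes, 5 were higher in DISC1-Δ3 OPCs (Lrp4, Kremen1, Dvl1, Dvl2, Dvl3), 2 were lower (Lrp5, Lrp6), and the 2 secretion genes (Porcn, Wls) did not pass the test. The 7 called genes are 77.8% of the 9, where 39.9% of the 13792 tested genes were called, 20.4% as higher and 19.5% as lower. Of all called genes 51.1% were higher, against 69.2% and 70.0% when library totals or RPKM sums set the scaling. The 5 higher genes passed under both of these scalings too. Both move the median log2 fold change of all tested genes up to 0.09, so this is no further check on a rise. Of the 2 lower genes, Lrp5 passed under both and Lrp6 under neither (edgeR adjusted p = 0.0867 and 0.109). The RPKM of the 2 genotypes did not overlap for 6 of the 9 genes (Lrp4, Lrp5, Kremen1, Dvl1, Dvl2, Dvl3), against 52.0% of all tested genes. The median log2 fold change of the 9 genes was 0.16 and its median size 0.24. Over all tested genes these medians were 0.01 and 0.19, and over all called genes the median size was 0.38. Without DISC1-Δ3 replicate 1 only 4 of the 9 were called, because Lrp6, Dvl1 and Dvl2 no longer passed, where 34.7% of all tested genes were called.

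**Figure D1:**
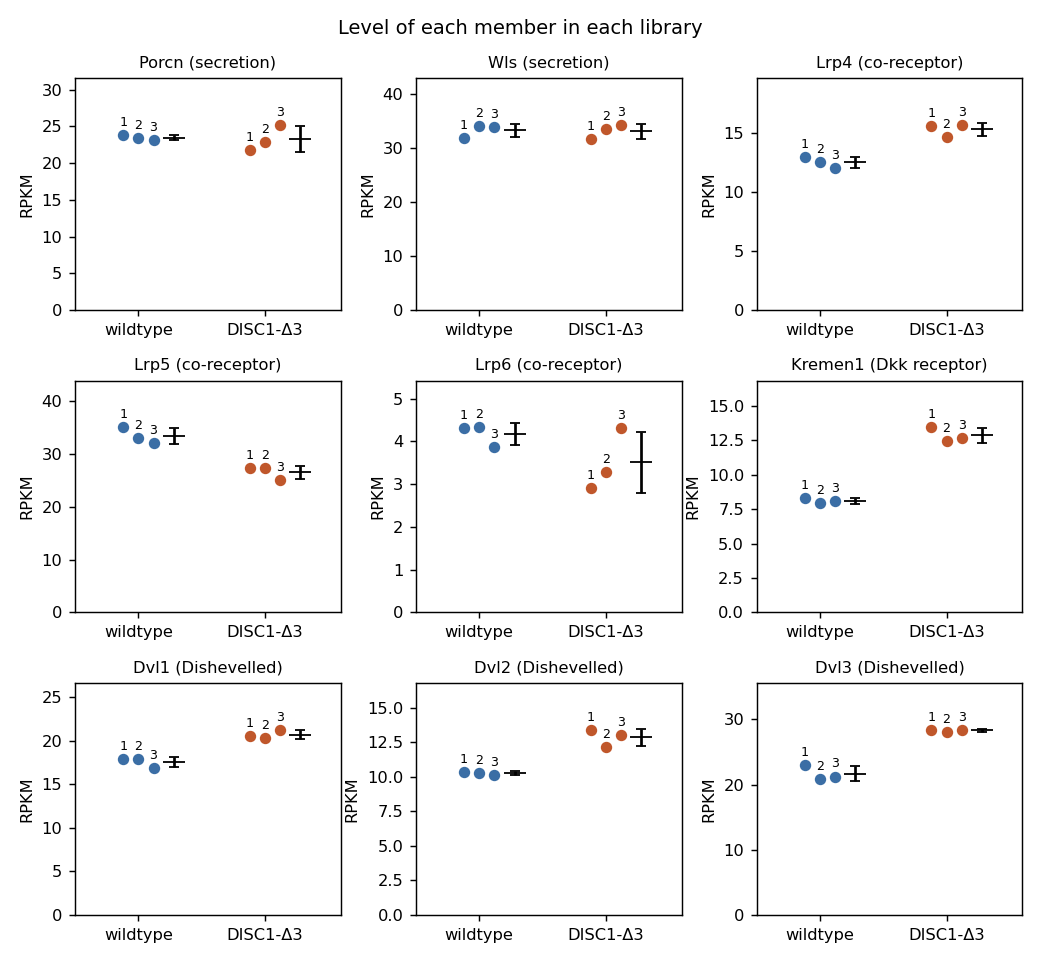
RPKM (reads per kilobase of transcript, relative to the library's total) of each of the 9 genes in each library, with the replicate number above each point and the mean ± SD (n = 3) beside each group; every axis starts at 0. Kremen1 lay between 7.92 and 8.34 in wildtype and between 12.43 and 13.46 in DISC1-Δ3 OPCs, whereas the 2 groups overlap for Porcn, Wls and Lrp6.

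Libraries held 13716619 to 16417219 reads assigned to genes, and single members were read from 384 to 2718 reads per library. Levels are given as deposited RPKM, while fold changes come from the read counts after TMM scaling, which set the DISC1-Δ3 libraries 1.02 to 1.04 against 0.970 to 0.973 in wildtype, so a ratio of RPKM runs slightly above the fitted fold. Disc1 itself (RPKM 3.51, 3.34 and 3.81 in wildtype, 2.86, 2.44 and 2.85 in DISC1-Δ3) changed by -0.45 on the log2 scale (standard error 0.088, edgeR's quasi-likelihood test, Benjamini-Hochberg adjusted p = 0.000528), and a value per gene does not resolve exon 3. Cspg4, whose promoter drives the Cre, rose by 0.46 on the log2 scale (edgeR's quasi-likelihood test, Benjamini-Hochberg adjusted p = 1.15e-05). The 8 OPC markers summed to an RPKM of 485 to 504 in wildtype libraries and 607 to 632 in DISC1-Δ3 libraries. Of these 8, 6 were higher and 1, Ptprz1, was lower (log2 fold change -0.35). The 8 microglial markers summed to far more, 8282 to 8582 in wildtype libraries and 6111 to 6285 in DISC1-Δ3, and all 8 were lower. By the same summed RPKM, oligodendrocyte markers ran from 2441 to 2473 and from 2255 to 2287 (5 of 6 lower), astrocyte markers from 1165 to 1193 and from 1116 to 1148 (4 of 6 lower, 1 higher), neuronal markers from 268 to 274 and from 323 to 348 (5 of 6 higher), endothelial markers from 90.2 to 94.8 and from 121 to 122 (3 of 5 higher), and pericyte markers from 50.1 to 55.9 and from 73.3 to 75.0 (4 of 4 higher). No marker was at 0 in every library. Each cell type's markers therefore moved with genotype, their part in the results below was not tested, and in RNA from such a mixture fewer cells of a type and less RNA per cell cannot be told apart.

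The 2 secretion genes showed no difference that passed the test. Porcn (chrX:8193846-8206548, minus strand; positions here and below are RefSeq's on GRCm38.p6) had an RPKM of 23.83, 23.42 and 23.17 in wildtype libraries and of 21.72, 22.91 and 25.21 in DISC1-Δ3 replicates 1 to 3. The DISC1-Δ3 values lay on both sides of the wildtype values and spread more widely, 23.3 ± 1.77 against 23.5 ± 0.333 (SD, n = 3). Its log2 fold change was -0.06 with a 95% interval from -0.20 to 0.08 (standard error 0.066, edgeR's quasi-likelihood test, Benjamini-Hochberg adjusted p = 0.478), and under scaling by library totals or by RPKM sums the estimate was 0.02, with adjusted p of 0.839 and 0.816.

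Wls (chr3:159839650-159938666, plus strand), the dedicated carrier of Wnt ligands, was among the highest of the 9. Its RPKM was 31.96, 34.05 and 33.90 in wildtype libraries and 31.64, 33.51 and 34.34 in DISC1-Δ3 OPCs, so the groups overlapped almost fully. The means were 33.3 ± 1.17 and 33.2 ± 1.38 (SD, n = 3), and the log2 fold change was -0.09 with a 95% interval from -0.20 to 0.02 (standard error 0.053, edgeR's quasi-likelihood test, Benjamini-Hochberg adjusted p = 0.193).

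Lrp5 was the co-receptor with the largest fall. Lrp5 (chr19:3584825-3686585, minus strand) had an RPKM of 35.10, 33.07 and 32.17 in wildtype libraries and of 27.32, 27.28 and 25.12 in DISC1-Δ3 OPCs. Every DISC1-Δ3 library lay below every wildtype library. The means were 33.4 ± 1.50 and 26.6 ± 1.26 (SD, n = 3), and the fitted log2 fold change was -0.41 (standard error 0.052, edgeR's quasi-likelihood test, Benjamini-Hochberg adjusted p = 5.73e-06), a change of -24.7%. This call held in all 15 alternative settings, with log2 fold changes from -0.45 to -0.32. Lrp5, and Lrp6 below, moved in the same direction as the microglial, oligodendrocyte and astrocyte marker sums given above.

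Lrp6 (chr6:134446476-134566913, minus strand), the paralog of Lrp5, was the lowest of the 9 genes. Its RPKM was 4.32, 4.33 and 3.87 in wildtype libraries and 2.92, 3.29 and 4.31 in DISC1-Δ3 OPCs. DISC1-Δ3 replicates 1 and 2 lay below all wildtype libraries, but replicate 3 lay within the wildtype range. The means were 4.17 ± 0.263 and 3.51 ± 0.720 (SD, n = 3), and the log2 fold change was -0.33 (standard error 0.10, edgeR's quasi-likelihood test, Benjamini-Hochberg adjusted p = 0.0182). Without DISC1-Δ3 replicate 3 the log2 fold change was -0.51 (adjusted p = 4.03e-06, the same edgeR test). The call was lost in 7 of 15 alternative settings, among them the fits without wildtype replicate 1 (adjusted p = 0.0775), wildtype replicate 2 (0.0739) or DISC1-Δ3 replicate 1 (0.0576), all by edgeR. Among all libraries DISC1-Δ3 replicate 3 also stood apart on the second principal component, which held 8.13% of the variance (-14.2, against 7.30 and 6.79 for the other DISC1-Δ3 libraries).

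Lrp4 (chr2:91457456-91513901, plus strand) moved the other way. Its RPKM was 12.94, 12.53 and 12.02 in wildtype libraries and 15.53, 14.65 and 15.66 in DISC1-Δ3 OPCs, with no overlap between the groups. The means were 12.5 ± 0.461 and 15.3 ± 0.549 (SD, n = 3), and the log2 fold change was 0.19 (standard error 0.050, edgeR's quasi-likelihood test, Benjamini-Hochberg adjusted p = 0.00462). All 15 alternative settings kept this call, with log2 fold changes from 0.16 to 0.29. The 0.29 came from limma on log2(RPKM + 0.1), a fit that also raises the median of all tested genes.

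Kremen1 had the largest difference of the 9 genes. Kremen1 (chr11:5191551-5261713, minus strand) had an RPKM of 8.34, 7.92 and 8.10 in wildtype libraries and of 13.46, 12.43 and 12.69 in DISC1-Δ3 OPCs, from 537 to 951 reads per library. The lowest DISC1-Δ3 library was well above the highest wildtype library. The means were 8.12 ± 0.211 and 12.9 ± 0.536 (SD, n = 3), and the log2 fold change was 0.58 (standard error 0.064, edgeR's quasi-likelihood test, Benjamini-Hochberg adjusted p = 1.06e-06), a rise of 49.5%. Over the 15 alternative settings it ran from 0.53 to 0.67 and always passed. The paralog Kremen2, which binds Dkk1 as well, had at most 4 reads in any library and was not tested.

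The genes whose log2 CPM followed that of Kremen1 most closely over the 6 libraries were Syn2, a synaptic vesicle protein (Pearson r = 0.999), Pdgfra, the antigen used for panning (r = 0.999), and Apba2, a neuronal adaptor protein (r = 0.998). Pdgfra had an RPKM of 18.06, 17.22 and 17.16 in wildtype libraries and of 26.79, 24.96 and 25.83 in DISC1-Δ3 libraries. These 6 points fall into the 2 genotypes, so any gene with a clean rise scores highly, and 13.7% of the tested genes had an r over 0.9 with Kremen1. OPC, neuronal, endothelial and pericyte marker sums moved in the same direction as Kremen1, and so in that of Lrp4, Dvl1, Dvl2 and Dvl3.

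**Figure D2:**
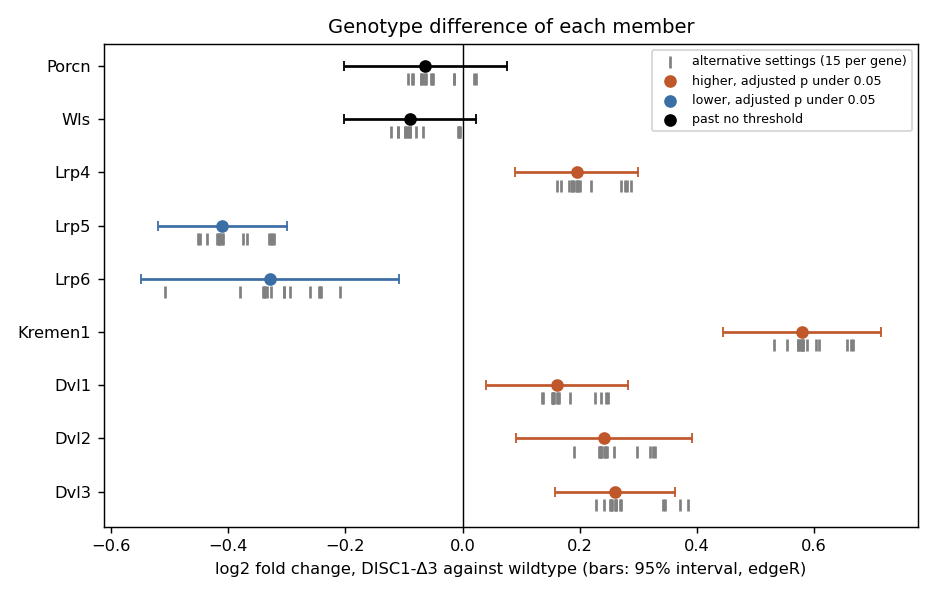
Log2 fold change of each gene, DISC1-Δ3 against wildtype (horizontal axis), from edgeR with its 95% interval (coloured points and bars), and the estimates under the 15 alternative settings (grey ticks). Only Porcn has ticks on both sides of 0, the ticks of Lrp6 run from -0.51 to -0.21, and Kremen1 lies farthest from 0.

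All 3 Dishevelled genes were higher in DISC1-Δ3 OPCs. These cytoplasmic scaffolds share a domain that lets them assemble into clusters under the receptor. Dvl3 (chr16:20516949-20534013, plus strand) had an RPKM of 22.97, 20.86 and 21.24 in wildtype libraries and of 28.40, 28.10 and 28.43 in DISC1-Δ3 OPCs. The groups were well separated, and the DISC1-Δ3 libraries lay close together. The means were 21.7 ± 1.12 and 28.3 ± 0.182 (SD, n = 3), and the log2 fold change was 0.26 (standard error 0.048, edgeR's quasi-likelihood test, Benjamini-Hochberg adjusted p = 0.000341), which passed in all 15 alternative settings.

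Dvl2 (chr11:70000592-70010109, plus strand) had an RPKM of 10.37, 10.28 and 10.12 in wildtype libraries and of 13.40, 12.14 and 12.98 in DISC1-Δ3 OPCs, without overlap. The means were 10.3 ± 0.127 and 12.8 ± 0.642 (SD, n = 3), and the log2 fold change was 0.24 (standard error 0.072, edgeR's quasi-likelihood test, Benjamini-Hochberg adjusted p = 0.0122). Without DISC1-Δ3 replicate 1 it was 0.19 (adjusted p = 0.0754, the same edgeR test). In GENCODE's transcripts, 13.0% of the 50-base stretches of Dvl2 also occur in other genes, mostly in its neighbour Acadvl. For the other members at most 1.43% are shared, so the reads of Dvl2 may be less certain than theirs. GENCODE's Dvl2 ends at base 70012301, beyond the RefSeq end given above. Which gene models were counted is not given in the sources used here. Acadvl, a mitochondrial enzyme of fatty acid oxidation, was fitted at -0.02 on the log2 scale (standard error 0.053, edgeR's quasi-likelihood test, Benjamini-Hochberg adjusted p = 0.835).

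Dvl1 (chr4:155847402-155859303, plus strand) had an RPKM of 17.90, 17.89 and 16.86 in wildtype libraries and of 20.48, 20.30 and 21.26 in DISC1-Δ3 OPCs, again without overlap. The means were 17.6 ± 0.598 and 20.7 ± 0.510 (SD, n = 3), and the log2 fold change was 0.16 (standard error 0.057, edgeR's quasi-likelihood test, Benjamini-Hochberg adjusted p = 0.0329). This was the weakest of the 7 calls. It was lost in DESeq2 (0.15, adjusted p = 0.0812) and whichever of the 6 libraries was left out, with log2 fold changes from 0.14 to 0.18 and edgeR adjusted p from 0.0547 to 0.136. Dvl1 shares 36 exonic bases with the taste receptor gene Tas1r3 on the opposite strand, which had 9 to 20 reads per library.

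The promoters of the 3 Dishevelled genes are shown because the genes rose together. Each window runs from 250 bases before to 50 bases after the start that the RefSeq promoter table uses (GRCm38.p6), on the plus strand, at chr4:155847152-155847451 for Dvl1, chr11:70000342-70000641 for Dvl2 and chr16:20516736-20517035 for Dvl3. For Dvl3 this start lies downstream of the gene's first base given above. Capitals mark GC boxes, the GGGCGG motif on either strand (CCGCCC on the strand shown), and the E-box CACGTG; the motifs do not overlap each other, but a pair of GC boxes in Dvl1 share a base.
Dvl1: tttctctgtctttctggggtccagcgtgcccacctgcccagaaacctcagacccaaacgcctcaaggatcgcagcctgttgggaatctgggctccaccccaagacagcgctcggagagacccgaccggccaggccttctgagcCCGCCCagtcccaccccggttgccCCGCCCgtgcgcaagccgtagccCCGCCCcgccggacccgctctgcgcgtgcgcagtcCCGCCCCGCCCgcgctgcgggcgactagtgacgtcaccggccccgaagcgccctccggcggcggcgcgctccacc
Dvl2: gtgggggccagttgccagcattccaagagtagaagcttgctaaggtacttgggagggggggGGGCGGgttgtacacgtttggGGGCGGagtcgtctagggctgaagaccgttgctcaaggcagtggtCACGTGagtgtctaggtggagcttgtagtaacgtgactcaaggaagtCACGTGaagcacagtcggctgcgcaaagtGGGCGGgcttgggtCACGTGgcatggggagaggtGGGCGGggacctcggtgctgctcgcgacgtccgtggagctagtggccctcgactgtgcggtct
Dvl3: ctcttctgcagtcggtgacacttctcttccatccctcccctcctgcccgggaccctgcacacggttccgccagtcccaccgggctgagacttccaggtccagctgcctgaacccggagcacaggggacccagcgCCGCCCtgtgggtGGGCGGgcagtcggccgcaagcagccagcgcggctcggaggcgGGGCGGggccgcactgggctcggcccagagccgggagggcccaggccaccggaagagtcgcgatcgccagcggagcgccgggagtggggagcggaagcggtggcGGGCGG
GC boxes numbered 5 in Dvl1, 4 in Dvl2 and 4 in Dvl3, where 35.7% of 32851 promoters of this length hold at least 1. CACGTG occurred 3 times in Dvl2 and in neither of the others, and 7.15% of promoters hold it. The windows were rich in G and C, 72.3% in Dvl1, 62.0% in Dvl2 and 74.0% in Dvl3 against a median of 52.7%, and held 35, 20 and 30 CpG against a median of 7. Wls, one of the genes that did not pass the test, had 1 GC box, 58.0% G and C, and 11 CpG. The cores of the TCF/LEF motif, CTTTGA and CTTTGT on either strand, were in none of these 4 windows, and 16.0% and 18.7% of promoters hold them. These are counts of letters in short windows, not sites.

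Sums over genes were added after their values were seen and join genes already called in 1 direction, so they are a description without a test. Dishevelled RPKM summed over the 3 genes was 51.24, 49.03 and 48.22 in wildtype libraries and 62.28, 60.54 and 62.67 in DISC1-Δ3 OPCs. The sum of Lrp5 and Lrp6 was 39.42, 37.40 and 36.04 in wildtype libraries and 30.24, 30.57 and 29.43 in DISC1-Δ3 OPCs. Neither sum overlapped between genotypes. The means in wildtype and DISC1-Δ3 OPCs were 49.5 ± 1.56 and 61.8 ± 1.13 for the Dishevelled sum and 37.6 ± 1.70 and 30.1 ± 0.587 for the Lrp5 and Lrp6 sum (SD, n = 3).

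**Figure D3:**
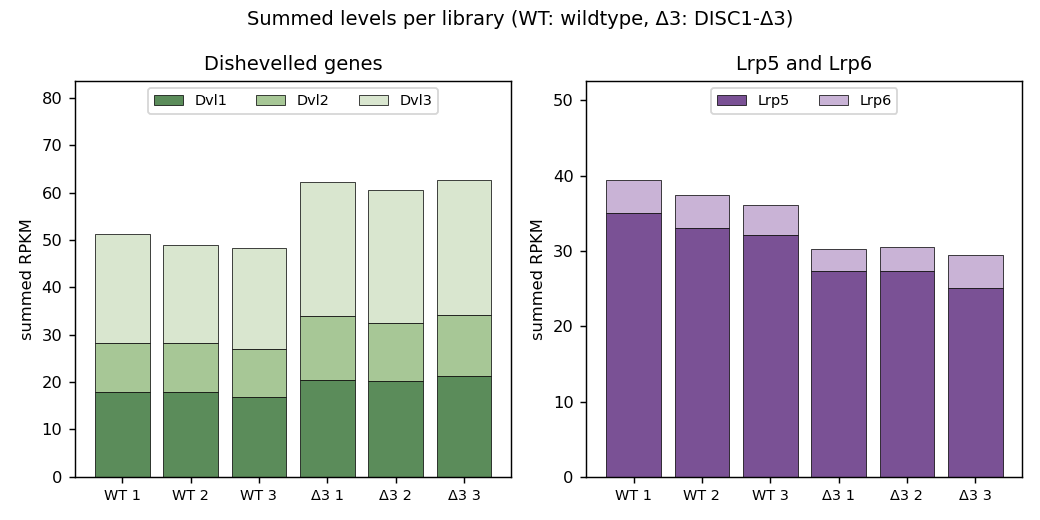
Summed RPKM per library (bars, stacked by gene, from 0) of the 3 Dishevelled genes and of Lrp5 with Lrp6. The Dishevelled bars reach 48.22 to 51.24 in wildtype libraries and 60.54 to 62.67 in DISC1-Δ3 OPCs, and the Lrp5 and Lrp6 bars reach 36.04 to 39.42 and 29.43 to 30.57.

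By RPKM, the mean shares of Dvl3 and Dvl1 differed by 1.99 and -2.02 percentage points (DISC1-Δ3 minus wildtype), without overlap between the genotypes. Those of Dvl2 and Lrp5 differed by 0.03 and -0.60 points, with overlap. Dvl3 made up 43.8% ± 1.16 of the Dishevelled sum in wildtype and 45.8% ± 0.551 in DISC1-Δ3 OPCs, and Dvl1 made up 35.5% ± 0.888 and 33.4% ± 0.525 (SD, n = 3; two-sided exact permutation p = 0.1 for each, the smallest that 3 against 3 libraries can give). By read counts instead of RPKM, the exact p was 0.3 for Dvl3 and 0.2 for Dvl1. Dvl2 made up 20.7% ± 0.427 and 20.8% ± 0.733 (exact permutation p = 1, n = 3). Lrp5 made up 88.9% ± 0.435 of the RPKM of Lrp5 and Lrp6 in wildtype libraries and 88.3% ± 2.62 in DISC1-Δ3 OPCs (exact permutation p = 0.9, n = 3), with 85.4% in DISC1-Δ3 replicate 3, the library in which Lrp6 was high.

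In the wildtype libraries, RNA from a mixture of cells, the order of levels per length was Lrp5, Wls, Porcn, Dvl3, Dvl1, Lrp4, Dvl2, Kremen1 and Lrp6. It ran from the 81.9th to the 33.0th percentile of tested genes. Of neighbours in this order, only Lrp5 and Wls overlapped between libraries. In the DISC1-Δ3 libraries the order was Wls, Dvl3, Lrp5, Porcn, Dvl1, Lrp4, Kremen1, Dvl2 and Lrp6, where Lrp5 overlapped with Porcn and Kremen1 with Dvl2.

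Genes that work with these 9 were taken as 4 lists, written for their known roles but with earlier results of these data known. The shares called in them are therefore a description. Of 21 genes of Wnt secretion and Wls recycling, all tested, 8 were higher and 5 lower (61.9% called, against 39.9% of all tested genes, with a median log2 fold change of -0.01 against 0.01). The largest rises were in extracellular regulators: Notum, which removes the lipid that Porcn adds, had an RPKM of 5.97 ± 0.165 in wildtype libraries and 200 ± 2.33 in DISC1-Δ3 OPCs (SD, n = 3; log2 fold change 5.02), and the glypicans Gpc4 and Gpc3, which hold Wnts at the cell surface, had log2 fold changes of 0.83 and 0.60. The largest falls were in Scd1 (log2 fold change -0.37), a desaturase that makes the fatty acid used by Porcn, and in Tmed5 (-0.27) and Tmed10 (-0.22), cargo receptors of the early secretory route. Tmed5 overlapped between genotypes in RPKM and lost its call under scaling by RPKM sums and without wildtype replicate 1 or DISC1-Δ3 replicate 2. The number of higher genes fell to 4 without wildtype replicate 2 or 3, to 3 without DISC1-Δ3 replicate 1 and to 5 without DISC1-Δ3 replicate 2, all from edgeR.

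The LDL receptor family, to which Lrp4, Lrp5 and Lrp6 belong, moved in both directions. Of 12 other genes listed with it 10 were tested, 3 were higher and 4 lower (70.0% called, against 39.9% of all tested genes, median log2 fold change 0.02). The list and its 4 lower genes include Lrpap1 (log2 fold change -0.17), a chaperone of these receptors and not itself a member of the family. Sorl1, a sorting receptor, fell from 12.9 ± 0.244 to 9.84 ± 0.665 RPKM (SD, n = 3; log2 fold change -0.48), Lrp1, a large endocytic receptor, fell from 164 ± 10.1 to 138 ± 7.02 (-0.33), and Lrp10 fell from 99.2 ± 2.01 to 87.8 ± 3.66 (-0.25). Lrp11 rose from 6.23 ± 0.477 to 9.63 ± 0.496 (log2 fold change 0.56), with smaller rises in the reelin receptor Vldlr (0.24) and in Lrp3 (0.18). The call of Vldlr was lost in DESeq2 and without wildtype replicate 2 or 3 or DISC1-Δ3 replicate 2 or 3, and that of Lrp3 without wildtype replicate 3 or DISC1-Δ3 replicate 2. The number of higher genes was therefore 1 without either of the latter libraries.

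Of 18 genes listed for the folding, phosphorylation, turnover or inhibition of Lrp5 and Lrp6, 17 were tested. Of these, 4 were higher and 1 lower (29.4% called, below the 39.9% of all tested genes, median log2 fold change 0.08). Apcdd1, a membrane inhibitor that binds Wnt and Lrp5, rose from 44.6 ± 0.818 to 174 ± 5.28 RPKM (SD, n = 3; log2 fold change 1.89). Lypd6 and Tmem198, both known to promote Lrp6 phosphorylation, had log2 fold changes of 1.11 and 0.57. Dab2, an endocytic adaptor, was the gene that fell (-0.16), a call that was lost under scaling by RPKM sums and without wildtype replicate 2 or 3, while 2 genes were lower without DISC1-Δ3 replicate 3.

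Of 28 Dishevelled-binding proteins 27 were tested, 7 were higher and 3 lower (37.0% called, near the 39.9% of all tested genes, median log2 fold change 0.02). The largest rises were in antagonists and regulators of turnover: Nkd1, a feedback inhibitor that binds Dishevelled, rose from 9.91 ± 0.164 to 107 ± 1.08 RPKM (SD, n = 3; log2 fold change 3.35), Dact1 from 3.33 ± 0.138 to 9.81 ± 0.299 (1.48), and Klhl12, an adaptor that brings Dishevelled to a ubiquitin ligase, from 2.11 ± 0.136 to 3.58 ± 0.335 (0.67). The lower genes were the arrestins Arrb2 (log2 fold change -0.46) and Arrb1 (-0.23) and the kinase Csnk1e (-0.13), which phosphorylates Dishevelled. Csnk1e overlapped between genotypes in RPKM and lost its call under scaling by RPKM sums and without wildtype replicate 2 or 3, and 6 genes of the list were lower without DISC1-Δ3 replicate 3.

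**Figure D4:**
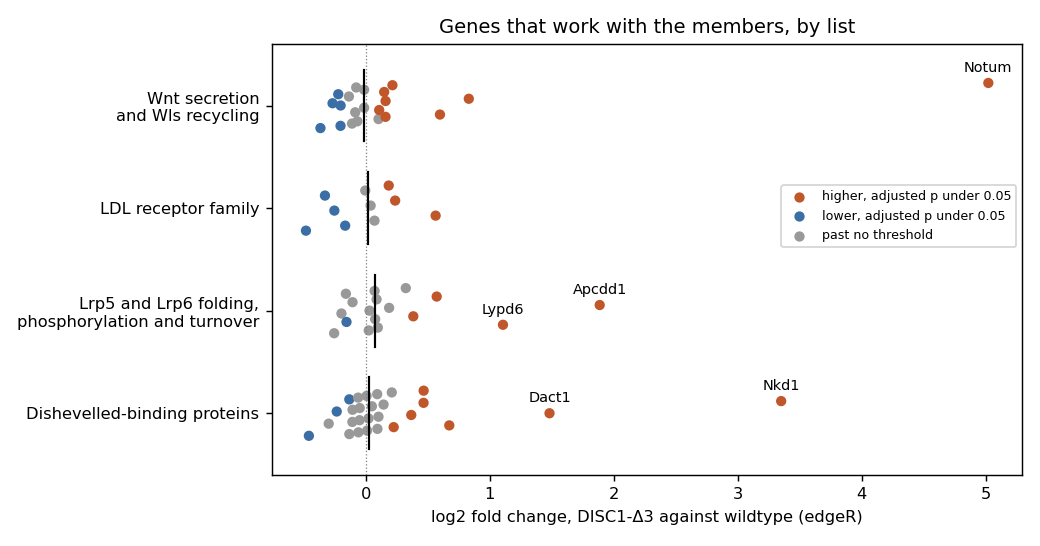
Log2 fold change, DISC1-Δ3 against wildtype, from edgeR (horizontal axis) of every tested gene in the 4 lists, coloured by the direction of the call at an adjusted p of 0.05, with the list's median as a vertical line; vertical scatter within a list has no meaning. The medians lie between -0.01 and 0.08, and Notum, Nkd1, Apcdd1, Dact1 and Lypd6 are the genes with a log2 fold change over 1.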

How the data were processed

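RNA from OPCs isolated at P7 was sequenced as single-end 50-base reads, 3 libraries per genotype. The authors deposited 1 table with an expected count and an RPKM per gene and library, without scaling between libraries. The submitters' processing notes name Bowtie2 2.2.5 and mm10; the counting tool and library strandedness are not given in the sources used here. Of counts above 0, 90.2% were whole, including all 54 of the 9 genes. The table's 4 columns of averages per group were left out.

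Counts were rounded and fitted with edgeR 4.0.16 (R 4.3.3; TMM, quasi-likelihood, genotype term only) on the 13792 genes that reached an RPKM of 0.5 in 3 or more of the 6 libraries. P-values were two-sided and Benjamini-Hochberg adjusted over all tested genes (threshold 0.05). The code was also run on simulated counts with far fewer changed genes than were called here, which is no check on these calls. Shares of RPKM were compared by exact permutation. Alternatives were other scalings, DESeq2 1.42.0, limma 3.58.1 on log2(RPKM + 1) and log2(RPKM + 0.1), no filter, an RPKM of at least 1, a replicate block, and each library left out. The lists and markers, like the 9 genes, were chosen with those earlier results known. Named were the 9 genes, Disc1, Cspg4 and Pdgfra, up to 3 called genes per list and direction with the largest changes, and the 3 genes most correlated with Kremen1; Acadvl, Tas1r3 and Kremen2 were added after their values were seen. All 9 gene IDs matched RefSeq's table, and 4 of 9 had a promoter sequence.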

Additional observations from a re-analysis of the deposited data

How the results depend on the processing

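Of 135 re-estimates of the 9 genes (15 settings each), 118 kept direction and call, 15 lost the call and 2 changed sign. Those 2 were Porcn under library totals (0.0195) and RPKM sums (0.0230), uncalled in either fit. Only 1 gene was lower under library totals, RPKM sums and both limma fits, where Lrp6 had log2 fold changes of -0.25, -0.24, -0.21 (pseudocount 1) and -0.26 (pseudocount 0.1), with adjusted p of 0.0867, 0.109, 0.157 and 0.157. Dvl1 was not called by DESeq2 (0.15). Under RPKM sums, 3 secretion genes were lower, and 0 of the folding and turnover genes by edgeR (0 also at an unadjusted p under 0.05). DESeq2, with its own scaling and not refitted under RPKM sums, called 1 of them lower. The cause of these changes was not tested.

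With 1 library left out, 4 to 6 of the 9 genes were called (3 to 4 higher, 1 to 2 lower). Log2 fold changes ran from -0.51 to -0.24 for Lrp6, from 0.14 to 0.18 for Dvl1 and from 0.19 to 0.26 for Dvl2. List counts ran from 3 to 8 for higher secretion genes, from 1 to 3 for higher LDL receptor genes, from 0 (1 at an unadjusted p under 0.05) to 2 for lower folding and turnover genes, and from 2 to 6 for lower Dishevelled-binding genes. Over all genes, 4342 to 6232 were called in these fits. Replicate numbers did not pair the libraries (r of deviations 0.044, 0.026 and -0.029 for numbers 1 to 3). With a replicate block 5429 genes were called against 5498, and the same 7 of the 9 genes. Lrp6, with 384 to 647 reads per library, had the largest standard error of the 9 genes (0.10). Dvl2 had 396 to 583 reads per library and a standard error of 0.072. The part of depth in the lost calls of Lrp6 was not tested. Permutation over 3 against 3 libraries cannot reach 0.05.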
